A study of Mus musculus with 4 samples.

Results

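The expression of 10 genes of the calcium/calmodulin-dependent protein kinase (CaM kinase) pathway was examined in primary cultures of mouse prefrontal cortex (PFC) grown with or without FGF2. The genes were taken by symbol from the 55421 genes counted in each library. They comprise the 4 subunit genes of CaM kinase II (CaMKII), which are Camk2a, Camk2b, Camk2d and Camk2g, the 2 CaMKII inhibitor genes Camk2n1 and Camk2n2, the kinases Camk1 and Camk4, and the CaM kinase kinases Camkk1 and Camkk2. The PFC came from wild-type C57BL/6 mice at postnatal day 0 (P0), was dissociated with papain and was kept for 10 days in neurobasal medium with B27. Total RNA was sequenced from 2 libraries of cultures that received 5 ng/mL FGF2 (fibroblast growth factor 2) and from 2 libraries of cultures that received none (noFGF2), with strain, genotype, age, medium and culture time shared by both groups. The study used the mouse cultures to ask whether effects of FGF2 on human fetal PFC cultures, which were not analysed here, hold in another species. The sources used here state neither the sex of the mice nor how many animals were pooled. The study's methods describe the replicates of all samples other than its GW11 and GW20 human samples as technical, which read literally includes the mouse libraries, so the p-values may measure technical spread only.

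The 2 libraries with FGF2 held 9166432 and 9907613 counts on genes, and the 2 without held 10460236 and 10799886. Levels are given as CPM, the counts scaled to a common library total after TMM adjustment, and 3 counts correspond to 0.276 to 0.330 CPM. The lowest count of any of the 10 genes in any library was 58, so that none was near this floor. Neuronal and glial RNA were both present in every culture. The summed level of 12 pan-neuronal markers was 3846 and 3966 CPM with FGF2 and 5563 and 5544 CPM without FGF2, and that of 8 astrocyte markers was 12427 and 12310 CPM with FGF2 and 7527 and 7477 CPM without FGF2. All 6 markers of excitatory neurons (EN) and all 6 of inhibitory neurons (IN) were detected in each library. In bulk RNA, fewer cells of a type and less RNA per cell cannot be told apart.

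Calcium that enters a neuron binds calmodulin, and the loaded calmodulin switches on the CaM kinases. CaMKII is assembled from many subunits, of which the alpha and beta forms are best known from forebrain neurons, where they act at synapses, and the delta and gamma forms are found in many tissues. The proteins of Camk2n1 and Camk2n2 bind active CaMKII and inhibit it. CaMKK1 and CaMKK2, the products of Camkk1 and Camkk2, phosphorylate and activate CaMKI and CaMKIV, and CaMKIV acts in the nucleus on the transcription factor CREB.

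The RNA of most genes of the pathway was lower in the cultures with FGF2. Of the 10 genes, 7 fell (Camk2a, Camk2b, Camk2g, Camk2n1, Camk2n2, Camkk1 and Camkk2), Camk2d rose slightly, and Camk1 and Camk4 did not pass the test. A gene was called at an adjusted p below 0.05 in the quasi-likelihood test of edgeR, adjusted by Benjamini-Hochberg over the 17144 genes tested. By the same rule 19.9% of all tested genes were lower and 20.7% were higher with FGF2, 40.5% in all. The libraries with FGF2 lay below those without in 7 of the 10 genes and above them in 2, beside 33.4% and 33.6% of all tested genes. The median log2 fold change of the 10 genes was -0.36, beside -0.00076 over all genes tested. The choice of these genes was made with earlier results of these data known. The study itself names Camk2g as an EN marker and reports it as significantly lower with FGF2 in these mouse cultures. The fall of Camk2g given here repeats that result on the same data and is not independent evidence.

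**Figure D1:**
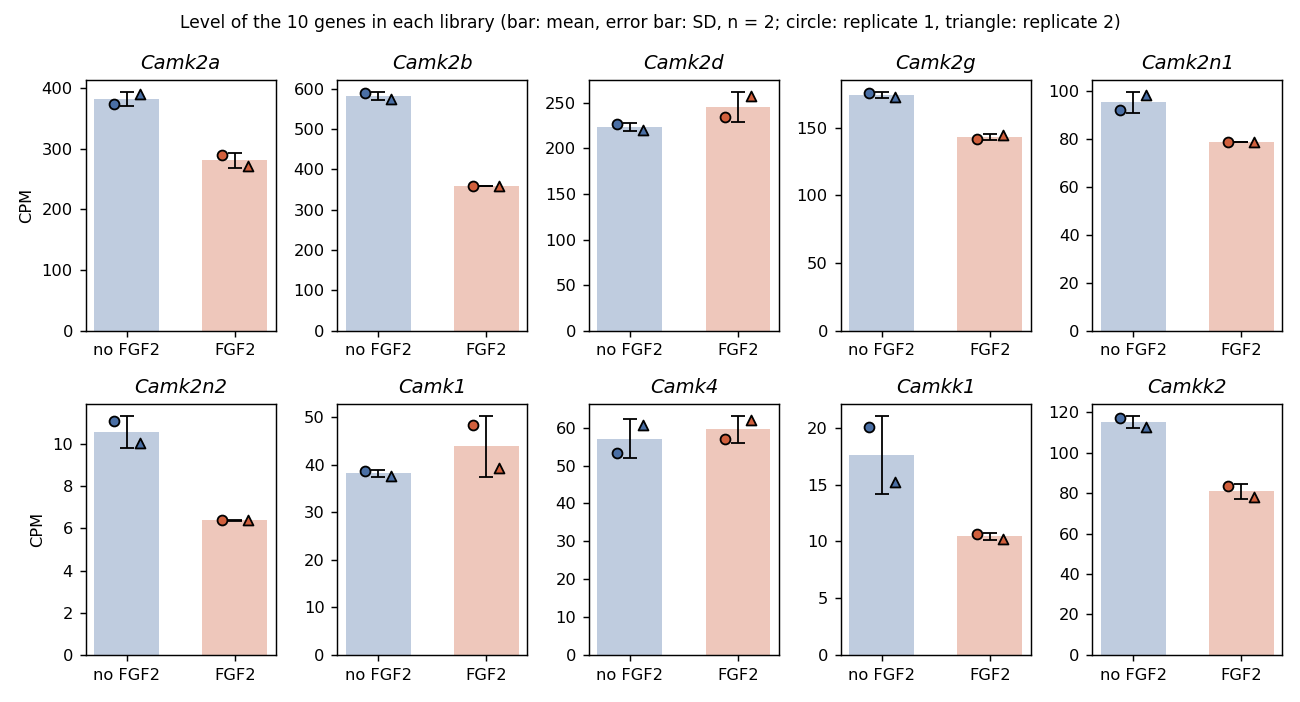
Level in CPM (vertical axis, starting at 0) of each of the 10 genes in the cultures without and with FGF2, with bars for the mean, error bars for the SD over 2 libraries and 1 point per library. The points of the 2 groups overlap only for Camk4, and the points with FGF2 lie above those without FGF2 only for Camk2d and Camk1.

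The DNA just upstream of the RefSeq start site is shown for genes that fell and for the subunit gene that was called higher. RefSeq windows of 250 upstream bases (build GRCm38.p6) were matched by symbol for 6 of the 10 genes, namely Camk2b, Camk2d, Camk2n2, Camk1, Camkk1 and Camkk2. Camk2b, Camk2n2 and Camkk1 are the subunit, inhibitor and kinase kinase genes with a window that fell most in their classes. Camk2d was called higher, a call lost in several alternatives given below. The windows of these genes are shown. They are written 5′ to 3′ on the strand of the gene, with capitals for the short cAMP response element (CRE) motif (TGACG, or CGTCA on the other strand) and for the CCAAT box (CCAAT, or ATTGG on the other strand).
Camk2b (chr11:6065749-6065998, minus strand): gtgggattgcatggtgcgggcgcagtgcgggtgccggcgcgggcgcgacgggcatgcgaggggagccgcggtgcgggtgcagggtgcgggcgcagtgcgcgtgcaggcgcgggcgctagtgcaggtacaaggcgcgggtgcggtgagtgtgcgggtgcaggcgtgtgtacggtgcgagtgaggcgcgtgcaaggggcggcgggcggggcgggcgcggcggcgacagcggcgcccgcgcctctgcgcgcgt
Camk2d (chr3:126596701-126596950, plus strand): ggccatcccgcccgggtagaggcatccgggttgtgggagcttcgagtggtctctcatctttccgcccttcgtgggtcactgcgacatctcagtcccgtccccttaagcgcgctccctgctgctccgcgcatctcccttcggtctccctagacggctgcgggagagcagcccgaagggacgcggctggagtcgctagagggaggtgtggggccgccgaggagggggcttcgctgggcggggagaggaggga
Camk2n2 (chr16:20621288-20621528, minus strand): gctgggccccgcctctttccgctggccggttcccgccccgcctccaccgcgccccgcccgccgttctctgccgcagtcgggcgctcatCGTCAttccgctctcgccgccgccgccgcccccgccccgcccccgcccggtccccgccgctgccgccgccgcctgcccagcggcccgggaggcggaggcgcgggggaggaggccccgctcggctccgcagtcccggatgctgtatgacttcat
Camkk1 (chr11:73018738-73018987, plus strand): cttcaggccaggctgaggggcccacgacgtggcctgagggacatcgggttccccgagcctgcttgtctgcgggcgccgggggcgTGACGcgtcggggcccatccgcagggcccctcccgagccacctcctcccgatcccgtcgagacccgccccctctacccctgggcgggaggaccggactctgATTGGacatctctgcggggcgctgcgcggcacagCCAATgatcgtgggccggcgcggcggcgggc
The Camk2n2 line leaves out the 9 bases next to the RefSeq start, which GENCODE places in the first exon. In the Camkk1 window 104 bases lie in exons of the noncoding RNA gene 4732414G09Rik on the other strand, and the Camk2b and Camk2d windows hold no annotated exon. The windows of Camk2b and Camk2d lie inside the wider GENCODE spans of these genes given below, downstream of the outermost GENCODE start. For Camkk1 and Camkk2 the first 50 bases from the RefSeq start were found in no GENCODE transcript. Both of these starts lie upstream of the GENCODE spans given below.

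All 6 windows were rich in G and C, from 58% for Camk1 to 80% for Camk2n2, beside a median of 52.4% over 32817 mouse promoter windows of the same length. The short CRE motif occurred once each in Camk2n2, Camkk1 and Camk1 and was found in 17.7% of all windows. GC boxes (GGGCGG or CCGCCC) numbered 6 in Camk2n2, 3 in Camk2b, 3 in Camk2d, 2 in Camkk1, 1 in Camkk2 and 0 in Camk1, and 32.7% of all windows held at least 1. The CCAAT box was present 2 times in Camkk1 and in no other of the 6 windows, beside 33.8% of all windows. No window held the full CRE (TGACGTCA, which contains both forms of the short motif, in 1.55% of all windows), the TATA motif (TATAAA or TTTATA, 12.4%) or the ETS core (CCGGAAG or CTTCCGG, 6.90%). Both Camk2b, called lower, and Camk2d, called higher, held 3 GC boxes and no short CRE motif. These are matches of letters only, and their part in the levels was not tested.

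Among the CaMKII subunits, the alpha, beta and gamma genes were lower with FGF2 and the delta gene was slightly higher. Camk2b (ENSMUSG00000057897, mm10 chr11:5969644-6066362), the beta subunit, which binds actin, had 358 and 359 CPM with FGF2 and 590 and 576 CPM without FGF2. The libraries with FGF2 were both far below those without. The means were 359 ± 0.391 and 583 ± 10.1 CPM (SD, n = 2), a level 1.62-fold lower with FGF2, with a log2 fold change of -0.70 ± 0.04 (SE) and an edgeR adjusted p of 8.0e-72.

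Camk2a (ENSMUSG00000024617, mm10 chr18:60925618-60988152), the alpha subunit and a common label of forebrain EN, had 290 and 272 CPM with FGF2 and 374 and 391 CPM without FGF2. The groups did not overlap. The means of 281 ± 12.6 and 383 ± 11.6 CPM (SD, n = 2) gave a level 1.36-fold lower with FGF2, with a log2 fold change of -0.45 ± 0.04 (SE) and an edgeR adjusted p of 3.7e-25. Camk2g (ENSMUSG00000021820, mm10 chr14:20734875-20794088), the gamma subunit, had 142 and 145 CPM with FGF2 and 176 and 173 CPM without FGF2. Again both libraries with FGF2 lay below both without. Its level was 1.21-fold lower, with a log2 fold change of -0.28 ± 0.05 (SE) and an edgeR adjusted p of 1.6e-06.

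Camk2d (ENSMUSG00000053819, mm10 chr3:126596302-126846326), the delta subunit, which is also the main form of the heart, had 234 and 258 CPM with FGF2 and 227 and 221 CPM without FGF2. Both libraries with FGF2 were above both without, but the gap between the FGF2 libraries was wider than the gap between the nearest libraries of the 2 groups. The level was 1.10-fold higher with FGF2 (95% interval 1.03 to 1.17), with a log2 fold change of 0.14 ± 0.05 (SE) and an edgeR adjusted p of 0.0093. This call was lost in several alternatives. Without FGF2 replicate 2 the log2 fold change shrank to 0.06 (edgeR adjusted p = 0.380). It was 0.15 without noFGF2 replicate 1 (edgeR adjusted p = 0.0602), 0.11 without noFGF2 replicate 2 (edgeR adjusted p = 0.183) and 0.13 with DESeq2 (adjusted p = 0.149).

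The mix of the subunits therefore differed between the cultures. To compare genes, CPM was divided by the union exonic length of each gene in kb. On this scale the 4 subunit genes summed to 111 and 110 CPM per kb with FGF2 and to 152 and 152 CPM per kb without FGF2. Camk2b made up 35.5% and 35.8% of this sum with FGF2 and 42.4% and 41.5% without FGF2, whereas Camk2d made up 9.42% and 10.4% with FGF2 and 6.61% and 6.44% without FGF2. The mean Camk2g share (± SD, n = 2) was 20.3% ± 0.43 in the FGF2 cultures and 17.9% ± 0.24 in the others, and the mean Camk2a share was 34.1% ± 1.36 and 33.7% ± 1.05. The groups did not overlap for the shares of Camk2b, Camk2g and Camk2d and overlapped for the share of Camk2a. The two-sided exact permutation p was 0.33 for Camk2b, Camk2g and Camk2d, the smallest that 2 against 2 libraries can give, and 0.667 for Camk2a.

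**Figure D2:**
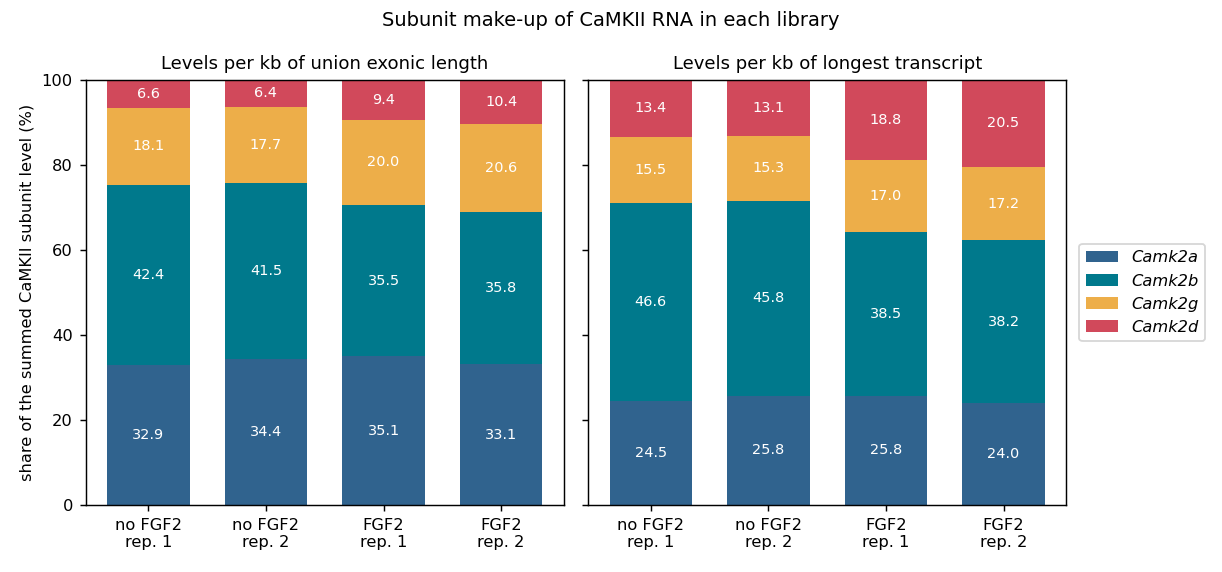
Share in percent (vertical axis) of each subunit gene in the summed level of the 4 CaMKII genes, in 1 stacked bar per library, with levels per kb of union exonic length on the left and per kb of the longest transcript on the right. On both scales the Camk2b share is smaller, and the Camk2g and Camk2d shares larger, in the 2 FGF2 libraries than in the 2 libraries without FGF2, while the size of the Camk2d share depends on the length used.

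The length used moved the shares but not their direction in these 3 genes. Camk2d has a union exonic length of 22493 bases and a longest transcript of 5524 bases, and per kb of the longest transcript its mean share was 19.6% ± 1.21 in the FGF2 cultures and 13.2% ± 0.18 in the others (SD, n = 2). Camk2b still held the largest share on that scale, with 38.4% ± 0.16 and 46.2% ± 0.56. Per kb of union exonic length, the log2 ratio of Camk2a to Camk2b was -0.02 and -0.11 with FGF2 and -0.37 and -0.27 without FGF2. Per kb of the longest transcript it was -0.58 and -0.67 with FGF2 and -0.92 and -0.83 without FGF2. The difference in this ratio between groups does not change with the length used. The alpha to beta ratio was thus higher in both FGF2 libraries, by 0.25 on the log2 scale (two-sided exact permutation p = 0.33, the smallest possible with n = 2 per group).

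Both inhibitor genes were lower with FGF2. Camk2n1 (ENSMUSG00000046447, mm10 chr4:138454314-138460123), the more abundant of the pair, had 78.7 and 78.9 CPM with FGF2 and 92.3 and 98.5 CPM without FGF2. Its level was 1.21-fold lower with no overlap of the groups, with a log2 fold change of -0.28 ± 0.07 (SE) and an edgeR adjusted p of 4.0e-04. Camk2n2 (ENSMUSG00000051146, mm10 chr16:20619215-20621287) was counted only 58 and 63 times with FGF2 and 117 and 109 times without FGF2, which is 6.38 and 6.39 CPM against 11.1 and 10.0 CPM. The groups were again apart, and the level was 1.65-fold lower with FGF2, with a log2 fold change of -0.73 ± 0.21 (SE) and an edgeR adjusted p of 0.0020. The Camk2n2 call was lost with DESeq2 (adjusted p = 0.0852) and in edgeR without noFGF2 replicate 1 (adjusted p = 0.0518).

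Inhibitor RNA was also set against kinase RNA in each library. The log2 ratio of the summed inhibitor level to the summed CaMKII level, both in CPM per exonic kb, was -2.29 and -2.27 with FGF2 and -2.38 and -2.35 without FGF2. The ratio was slightly higher in both FGF2 libraries, with a difference of 0.079 on the log2 scale, or 0.045 per kb of the longest transcript (two-sided exact permutation p = 0.33, the smallest possible with n = 2 per group).

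Both kinase kinase genes fell, and Camk1 and Camk4 did not pass the test. Camkk2 (ENSMUSG00000029471, mm10 chr5:122731170-122779409), whose product also phosphorylates AMP-activated protein kinase, had 83.4 and 78.3 CPM with FGF2 and 117 and 113 CPM without FGF2. The groups were well apart, with a level 1.42-fold lower with FGF2, a log2 fold change of -0.51 ± 0.07 (SE) and an edgeR adjusted p of 4.1e-13. Camkk1 (ENSMUSG00000020785, mm10 chr11:73019008-73042073) had 10.7 and 10.2 CPM with FGF2 and 20.0 and 15.2 CPM without FGF2. The libraries without FGF2 were both higher but differed from each other by more than those with FGF2 did. Its level was 1.68-fold lower with FGF2, with a log2 fold change of -0.75 ± 0.16 (SE), an edgeR adjusted p of 2.0e-05 and a range of -0.94 to -0.54 when each library was left out in turn.

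The log2 ratio of Camkk1 to Camkk2, per exonic kb, was -1.42 and -1.38 with FGF2 and -0.999 and -1.34 without FGF2. Camkk1 RNA was thus below Camkk2 RNA in every library, and the difference of -0.23 between groups was smaller than the gap between the libraries without FGF2 (two-sided exact permutation p = 0.33, the smallest possible with n = 2 per group).

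Camk4 (ENSMUSG00000038128, mm10 chr18:32934931-33191228) had 57.0 and 62.1 CPM with FGF2 and 53.4 and 60.8 CPM without FGF2. The groups overlapped. The log2 fold change was 0.06 with a 95% interval of -0.10 to 0.22 and an edgeR adjusted p of 0.607, and the log2 fold change was -0.0054 without FGF2 replicate 2 and -0.03 without noFGF2 replicate 1. Camk1 (ENSMUSG00000030272, mm10 chr6:113334124-113343984) had 48.4 and 39.3 CPM with FGF2 and 38.7 and 37.7 CPM without FGF2. FGF2 replicate 1 stood above the other libraries, which lay close together. The log2 fold change was 0.20 with a 95% interval of 0.0048 to 0.39 and an edgeR adjusted p of 0.0974, and it ranged from 0.04 to 0.34 when each library was left out in turn, with the highest value without FGF2 replicate 2 (edgeR adjusted p = 0.010). Camk1 shares 232 of its 5975 exonic bases with Ogg1 on the opposite strand, but the counting kept the strands apart.

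The log2 ratio of Camk4 to Camk1, per exonic kb, was 1.11 and 1.53 with FGF2 and 1.34 and 1.56 without FGF2, so that the groups overlapped (two-sided exact permutation p = 0.667, n = 2 per group). Camk4 RNA was above Camk1 RNA per exonic kb in each of the 4 libraries.

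Without FGF2 the 10 genes ranked, by mean CPM per exonic kb, as Camk2b at 63.9, Camk2a at 51.2, Camk2g at 27.2, Camk2n1 at 21.5, Camk4 at 17.5, Camkk2 at 10.5, Camk2d at 9.94, Camk2n2 at 8.19, Camk1 at 6.39 and Camkk1 at 4.72. The 2 libraries of each gene did not overlap with those of its neighbours in this order. With FGF2 the means were 39.3 for Camk2b, 37.6 for Camk2a, 22.4 for Camk2g, 18.3 for Camk4, 17.7 for Camk2n1, 10.9 for Camk2d, 7.40 for Camkk2, 7.34 for Camk1, 4.94 for Camk2n2 and 2.80 for Camkk1. Here Camk4 and Camk2n1 overlapped, as did Camkk2 and Camk1. Camk2b and Camk2a were the 2 highest genes in both groups and, per exonic kb, close to each other with FGF2. Per kb of the longest transcript their means with FGF2 were further apart, at 86.9 for Camk2b and 56.5 for Camk2a. Several places below Camk2b and Camk2a depended on the length used. Per kb of the longest transcript and without FGF2, Camk2d (40.5 CPM per kb) and Camkk2 (23.7) stood above Camk2n1 (21.5) and above Camk4, and Camk1 (15.9) stood above Camk2n2 (8.19). With FGF2, Camk2d (44.5) also stood above Camk2g (38.7) on that scale.

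Neuronal and glial marker RNA moved with the groups. Of 12 pan-neuronal markers 10 were lower and 1 was higher with FGF2, with a median log2 fold change of -0.43. All 6 IN markers were lower (median -0.69), with summed levels of 624 and 639 CPM with FGF2 and 1047 and 1069 CPM without FGF2. Of 6 EN markers 3 were lower and 0 were higher (median -0.23), with summed levels of 215 and 206 CPM with FGF2 and 241 and 253 CPM without FGF2.

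Glial lists moved the other way. Of 8 astrocyte markers 7 were higher, and all 7 tested oligodendrocyte lineage markers of 8 were higher, with summed levels of 1508 and 1530 CPM with FGF2 and 477 and 492 CPM without FGF2. Mog, a marker of mature oligodendrocytes, had 1 to 4 counts in each library. Of 6 microglia markers 3 could be tested and 2 were higher, with sums of 11.7 and 13.9 CPM with FGF2 and 5.51 and 5.90 CPM without FGF2. The fibroblast and mural sum was 59.5 and 56.8 CPM with FGF2 and 45.9 and 45.6 CPM without FGF2, with 2 of 5 tested genes lower and 2 higher. The endothelial sum was 3.75 to 7.19 CPM in the 4 libraries, and Cldn5, a defining endothelial marker, had 0 counts in all of them. The part of these shifts in the levels of the kinase and inhibitor genes was not tested.

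Set against the summed pan-neuronal level of the same library, the 10 genes fell into different places. Camk2b and Camk2n2 were lower relative to the pan-neuronal sum in both FGF2 libraries, by -0.19 and -0.22 on the log2 scale. Camk2a (0.06), Camkk2 (-0.0020) and Camkk1 (-0.23) had overlapping groups on this scale. Camk2g and Camk2n1 were higher relative to the sum with FGF2, each by 0.23, while Camk4 was higher by 0.57, Camk2d by 0.64 and Camk1 by 0.70. The markers in the sum did not move alike, with log2 fold changes from -1.10 (Tubb3) to 0.38 (Nefl). Map2 (-0.32) and Dcx (-0.80) had the highest levels among them. The place of a gene on this scale therefore depends on which markers carry the sum. These differences are descriptions with n = 2 per group and no test, and some of the 10 genes are expressed outside neurons as well.

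**Figure D3:**
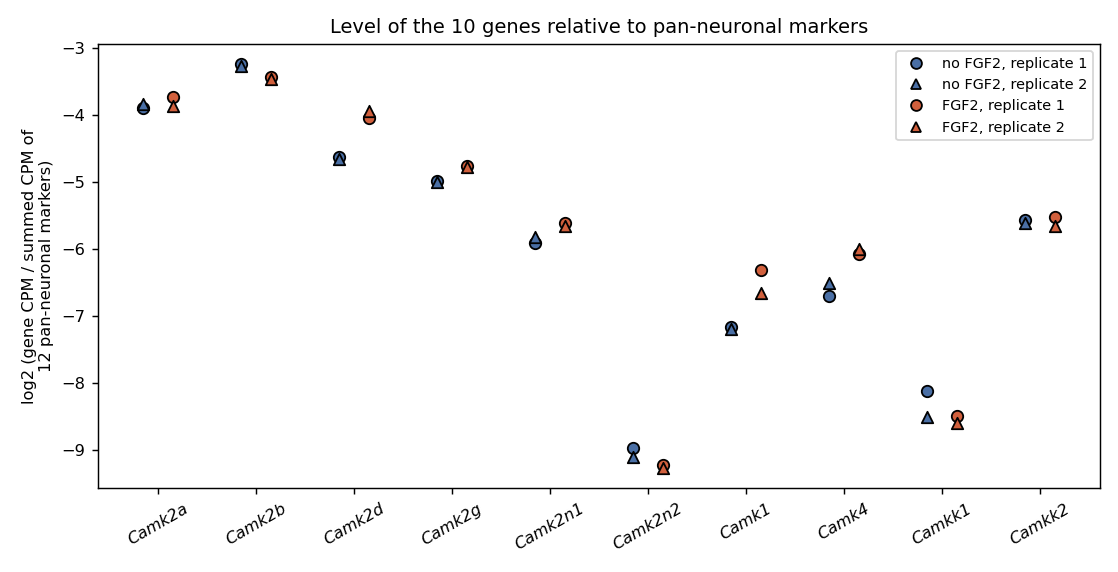
Log2 of the CPM of each gene over the summed CPM of 12 pan-neuronal markers in the same library (vertical axis), with 1 point per library. The FGF2 points lie above the others for Camk2d, Camk2g, Camk2n1, Camk1 and Camk4, below them for Camk2b and Camk2n2, and overlap with them for Camk2a, Camkk1 and Camkk2.

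The other genes of the pathway mostly fell too. Of 33 genes in 7 lists, 31 had enough counts to be tested, and 20 were lower, 3 were higher and 8 did not pass. Over all tested genes 19.9% were lower and 20.7% were higher. The median log2 fold change of the 31 genes was -0.34, beside -0.43 for the pan-neuronal markers. Mylk3, a myosin light chain kinase, and Pcp4, a small calmodulin-binding protein, had too few counts for the test.

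Of 7 other calmodulin-regulated kinase genes tested, 6 fell. Camkv, a kinase-like protein of vesicles and synapses without known kinase activity, had 106 and 106 CPM with FGF2 and 178 and 168 CPM without FGF2, a log2 fold change of -0.71 ± 0.06 (SE, edgeR adjusted p = 2.0e-32). The further members of the CaMKI family fell with log2 fold changes of -0.54 for Pnck, -0.48 for Camk1g and -0.43 for Camk1d. Camk1g lost its call with DESeq2 (adjusted p = 0.0510). Dapk1, a kinase linked to cell death, fell (-0.35), as did Mylk (-1.35), the smooth muscle type of myosin light chain kinase, which was low at 2.13 to 7.28 CPM. Mylk had 21 to 79 counts per library and shares a stretch of identical sequence with Gm21691, which had 4 to 19. The count of Mylk is therefore less certain. Eef2k, which slows translation elongation, had a log2 fold change of 0.09 and did not pass.

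The calmodulin genes Calm2 and Calm3 fell. Calm2 had 359 and 360 CPM with FGF2 and 436 and 443 CPM without FGF2, with a log2 fold change of -0.29 ± 0.04 (SE, edgeR adjusted p = 2.6e-12). Calm3 also had a log2 fold change of -0.29, and for both genes the groups did not overlap. Their counts are uncertain where reads fall in near-identical copies, which had 2 to 17 counts in each library.

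The calmodulin buffers went in opposite directions. Gap43, a growth cone protein that binds calmodulin without calcium, fell by 0.40 on the log2 scale. Nrgn, which encodes neurogranin, a postsynaptic protein of forebrain EN with the same kind of binding site, had 48.1 and 38.5 CPM with FGF2 and 28.8 and 31.0 CPM without FGF2. The Nrgn groups did not overlap, and its log2 fold change was 0.53 ± 0.10 (SE, edgeR adjusted p = 1.7e-06).

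Of 6 genes of calcineurin, the phosphatase that calmodulin activates, and its regulators, 4 fell. The catalytic gene Ppp3cb (-0.35), the regulatory subunit gene Ppp3r1 (-0.40) and Rcan2 (-0.74), a calcineurin regulator, had the clearest log2 fold changes. Ppp3ca, a further catalytic subunit, was close to the threshold with a log2 fold change of -0.10 ± 0.04 (SE, edgeR adjusted p = 0.0468). It lost its call under 8 of 12 alternative fits at the threshold of 0.05, and also at the threshold of 0.01. The fits that lost it included those without FGF2 replicate 2 (-0.08), without noFGF2 replicate 1 (-0.12) and without noFGF2 replicate 2 (-0.09). Rcan1, the other regulator, was called higher (log2 fold change 0.29), but its adjusted p was 0.156 with DESeq2, 0.113 in edgeR without FGF2 replicate 1 and 0.190 without noFGF2 replicate 1. Ppp3cc did not pass. Ppp3r1 shares a stretch of identical sequence with Wdr92, so that its count is less certain.

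Among the phosphatases that remove phosphate from CaM kinases, Ppm1e fell, with 252 and 268 CPM with FGF2 and 360 and 356 CPM without FGF2 and a log2 fold change of -0.46 ± 0.04 (SE, edgeR adjusted p = 1.9e-25). Ppm1f had a log2 fold change of -0.12 and did not pass. Of 5 genes of the CREB arm only the coactivator gene Crtc1 passed, with a log2 fold change of -0.46. Creb1 (0.04), Crebbp (0.04), Crtc2 (0.22) and Crtc3 (0.08) did not pass, and neither did Camk4, the kinase of this arm. Crtc2 passed in edgeR only without FGF2 replicate 2 (log2 fold change 0.34, adjusted p = 0.0234), and Creb1 had a log2 fold change of -0.10 without that library.

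Of the CaMKII partners at the synapse reported here, Gria1, Grin2b and Dlg4 fell as well, whereas Abi1 and Actn2 did not. Gria1, an AMPA receptor subunit that CaMKII phosphorylates, had 352 and 356 CPM with FGF2 and 713 and 698 CPM without FGF2, with a log2 fold change of -0.99 ± 0.04 (SE, edgeR adjusted p = 5.2e-149). Grin2b, the NMDA receptor subunit that docks CaMKII, had 1179 and 1164 CPM with FGF2 and 1900 and 1891 CPM without FGF2, with a log2 fold change of -0.69. Both receptor genes were far apart between the groups. Dlg4 (-0.34), a scaffold gene of the postsynaptic density, also fell. The Dlg4 transcript has short stretches found in several other genes. Abi1, an actin regulator, was called higher (0.22), a call lost with DESeq2 (adjusted p = 0.0757) and in edgeR without noFGF2 replicate 1 (adjusted p = 0.11), and Actn2, an actin crosslinker, did not pass (-0.08).

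**Figure D4:**
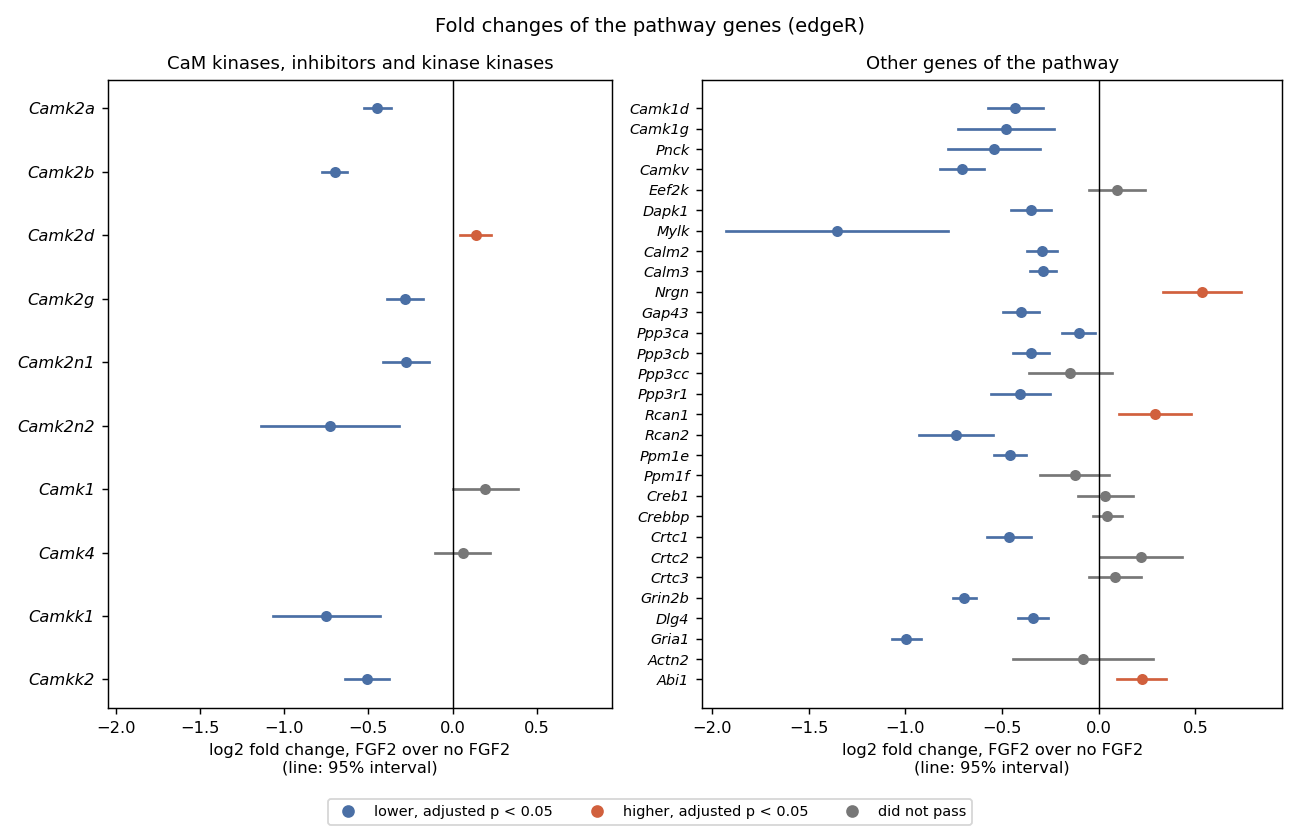
Log2 fold change with FGF2 over without FGF2 (horizontal axis) of the 10 genes on the left and of the genes of the other lists on the right, with lines for the 95% interval and colours for the call by edgeR. Most intervals in both panels lie below 0, with 7 of the 10 genes on the left called lower.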

How the data were processed

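The authors mapped the clean read pairs to mm10 with HISAT2 2.1.0, kept reads with a mapping quality of at least 20 with Samtools, counted them per gene with HTSeq 0.11.2, and deposited these counts unscaled. The mapping quality filter removes reads that map to several places, which can lower the count of genes with near-identical copies. The annotation and strand option given to HTSeq are not given in the sources used here. Of 477 genes covered to at least 98% by exons on the opposite strand 164 had a count, beside 4 of 669 covered so on the same strand, so that the counting kept the strands apart.

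Of 55421 identifiers 55154 were matched to GENCODE M21. A further 5 entries that name no gene were left out. Of the tallied read pairs 45.0% and 45.9% with FGF2 and 43.2% and 43.2% without FGF2 were in no feature. A further 1.47% to 1.76% were ambiguous. edgeR 4.0.16 (R 4.3.3) was used to test the counts by quasi-likelihood, with TMM scaling, its expression filter by group, robust estimation and Benjamini-Hochberg adjustment over 17144 genes at a threshold of 0.05. The SE of a log2 fold change is its size over the square root of F. Shares and ratios used CPM per exonic kb and a two-sided exact permutation test. The study's methods name DESeq2, which was an alternative here (1.42.0), next to limma-voom (limma 3.58.1), RLE, upper quartile and total count scaling, a minimum of 10 counts per library, no filter, the replicate number as a term, each library left out, a threshold of 0.01 and the length of the longest transcript. Replicates of a group differed by more than sampling noise (chi-square per degree of freedom 2.28 with FGF2 and 1.76 without FGF2). Transcripts were searched for copies of at least 100 bases and 95% identity with BLAST 2.17.0. All 10 genes were named, and genes of the other lists by list, of which some are not reported here. The genes and lists were chosen with earlier results of these data known.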

Additional observations from a re-analysis of the deposited data

How the results depend on the processing

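All 10 genes were tested under every alternative to the edgeR fit. Camk2a, Camk2b, Camk2g, Camk2n1, Camkk1 and Camkk2 stayed lower and past the threshold in each of them, and of the 10 genes 8 passed in every one except DESeq2 (6, all lower) and the fits that left out 1 library (6 to 8, with 6 without noFGF2 replicate 1 and 7 without noFGF2 replicate 2). Without FGF2 replicate 2 the gene called higher was Camk1, not Camk2d. Over all genes the count was 6948 (3407 lower, 3541 higher), 4007 with DESeq2 (1939 lower, 2068 higher), and 5212 to 6199 with 1 library left out. For the genes of the other lists it was 23, 19 with DESeq2 and 20 to 23 with 1 library left out, and 24 of the 31 tested kept direction and side of the threshold in every alternative.

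The sign turned for genes and ratios that had not passed when 1 library was left out. The log2 fold change ranged from -0.032 to 0.15 for Camk4 (-0.032 without noFGF2 replicate 1 and -0.0054 without FGF2 replicate 2), from -0.10 to 0.15 for Creb1 (-0.10 without FGF2 replicate 2 and -0.0046 without noFGF2 replicate 1), and from -0.19 to 0.019 for Actn2 (0.019 without noFGF2 replicate 1). The log2 ratio of Camk4 to Camk1 differed by -0.13 between groups and ranged from -0.34 to 0.080 (0.080 without FGF2 replicate 1). The cause of these changes was not tested. In fits that left a group with 1 library, that library was assumed to vary like the other group.

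Both groups carry replicate numbers 1 and 2, but nothing says that a number marks a shared culture or day, and the differences between replicates 1 and 2 were uncorrelated between the groups (r = 1.33e-05 over 17144 genes, which are not independent replicates). With the replicate number as a block 6816 genes passed (3338 lower, 3478 higher), with 8 of the 10 genes and 22 of the genes in the other lists. A block was not run for the shares and ratios.

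Scaling shifted the median log2 fold change of all genes to between -0.03 and -0.00076. With 2 libraries per group, a p-value of a share or ratio cannot pass the threshold and says nothing about stability. The depth limits Camk2n2 and Camkk1 most, with 58 to 211 counts per library.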

Other observations

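Within the Camk2d locus GENCODE lists 7 unspliced entries to be experimentally checked on the strand of the gene that share none of its exonic bases. They were singled out after their values had been seen. Gm43011 had 261 and 272 counts with FGF2 and 145 and 146 counts without FGF2 (log2 fold change 1.05, edgeR adjusted p = 1.7e-13). Both libraries with FGF2 lay far above both without. Gm43010, with 70 and 93 against 44 and 46 counts, rose as well (1.03, edgeR adjusted p = 1.2e-04), as did Gm42515, with 66 and 91 against 37 and 47 counts (1.07, edgeR adjusted p = 8.9e-05). Gm42514 was called higher at 26 and 20 against 10 and 9 counts (log2 fold change 1.44, edgeR adjusted p = 0.012), a call lost with DESeq2 (adjusted p = 0.158) and in edgeR without FGF2 replicate 1 (0.180), without noFGF2 replicate 1 (0.0659) and without noFGF2 replicate 2 (0.105). Gm43009 (log2 fold change 0.67, edgeR adjusted p = 0.207) and Gm43006 (0.98, edgeR adjusted p = 0.163) did not pass, and Gm43005 had too few counts to be tested. The log2 fold change over the exons of Camk2d itself was 0.14. The share of all read pairs in no feature was also higher with FGF2, at 45.0% and 45.9% against 43.2% and 43.2% without FGF2. The difference between these entries and the exons was not tested.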
